A study of Gallus gallus with 12 samples.

Results

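DAZL, DDX4, PIWIL1 and KIT are genes by which primordial germ cells, the precursors of eggs and sperm, are commonly recognised. They were taken, together with NANOG, from a list of 5 genes by 1 rule: every chicken probe set on the array whose only annotated gene symbol was a listed gene. The rule found 5 probe sets of 4 genes, out of 13008 genes that the array annotation names in this way. DAZL, DDX4 and KIT had 1 probe set each and PIWIL1 had a pair. NANOG, a pluripotency factor, had no probe set under its symbol and was not analysed here.

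The tissue was the dorsal mesentery, the double-layered fold by which the gut hangs in the body cavity, of Leghorn chicken embryos at Hamburger-Hamilton stage 21 (about day 3.5 of incubation). No treatment, transgene or mutation is named in the labels. The 4 groups were the epithelium and the mesenchyme of the left side and those of the right side, cut by laser from 8 µm frozen sections, with n = 3 arrays per group. An array held the pooled and amplified RNA of 1 compartment from 1 of 3 biological experiments, 1939 cut sections entering the study in all; the sources used here do not say how many embryos, or of which sex.

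In birds, primordial germ cells arise outside the gonads, circulate in the blood, leave the vessels and crawl through the tissue around the gut and its mesentery into the gonadal ridges. They carry RNA-binding proteins that hold germ line messages in check or translate them, such as DAZL and DDX4 (also called VASA), and a small RNA system built on PIWI proteins that silences transposons. Survival and movement depend, in the mouse, on the receptor KIT and its ligand KITLG, and in several vertebrates on the chemokine CXCL12 and its receptor CXCR4. The female bird keeps a functional ovary on the left, and an excess of germ cells on the left side is known from the chick gonad.

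Levels are MAS5 signals, a linear fluorescence intensity that the authors scaled to a common mean on every array. Signals of different probe sets are not on a common scale, so the level of a probe set is compared only between groups, and sums over a gene list, given below as a description, are weighted toward its brightest probe sets. All 60 of 60 values, 5 probe sets on 12 arrays, lay above the floor, set on each array at the level that 95% of 59 control probe sets for non-chicken sequences do not exceed, which was 19.3 to 39.6. Of all probe sets other than controls, 66.1% to 75.3% per array also lay above it. The array medians were 84.2 to 98.6. Right epithelium 3 and right mesenchyme 3 stood apart, their residuals from the fit having SDs of 0.32 and 0.31 log2 where the other 10 had 0.25 to 0.29, and results are also given without this pair. The 3 prime minus 5 prime signal of GAPDH, a measure of RNA integrity, was 1.23 to 1.58 log2 on left arrays and 0.95 to 1.30 on right arrays; its part in the left-right results was not tested.

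DAZL, an RNA-binding protein required for germ cell development, was higher on the left side in both layers, and within each side its mean was higher in the epithelium than in the mesenchyme. Its signal was 4890.4, 5329 and 5450.0 in left epithelium and 4675, 4249 and 3869 in left mesenchyme. On the right it was 3771, 3890.2 and 3539 in the epithelium and 2869, 3287 and 2772 in the mesenchyme. The group means therefore ran from left epithelium (5223 ± 294, SD, n = 3) over left mesenchyme (4264 ± 403) and right epithelium (3733 ± 179) to right mesenchyme (2976 ± 273). Left mesenchyme and right epithelium overlapped by the values of 3869 and 3890.2, while the other neighbours in that order did not overlap. In such tissue samples, fewer cells of a type and less RNA per cell cannot be told apart.

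Differences were fitted with limma on log2(signal + 16) over the 23063 probe sets that passed a filter on low values, all 5 germ cell probe sets among them, and a difference was called where the Benjamini-Hochberg adjusted p over all of these was under 0.05. DAZL rose on the left in the mesenchyme by 0.52 ± 0.11 log2 (SE; 95% interval 0.28 to 0.75; 1.43-fold; limma adjusted p = 0.019), and by 0.70, 0.37 and 0.48 in the 3 experiments. In the epithelium it rose by 0.48 ± 0.11 log2 (interval 0.25 to 0.72; 1.40-fold; limma adjusted p = 0.025), and by 0.37, 0.45 and 0.62 in the experiments. In neither layer did left and right arrays overlap. Over both layers the rise was 0.50 ± 0.08 log2 (interval 0.33 to 0.66; limma adjusted p = 0.00068). The left-right differences of the layers differed by -0.03 ± 0.16 log2 (interval -0.37 to 0.30; limma adjusted p = 0.99).

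The DAZL call over both layers held in all 23 alternatives tried, with differences of 0.45 to 0.54 log2 and adjusted p up to 0.038. The call in a single layer rested on individual arrays and on the processing. It was lost in both layers without the intensity trend. Changes other than leaving out 1 array or experiment took the limma adjusted p up to 0.19 in the mesenchyme and 0.20 in the epithelium. Leaving out an array or experiment took it up to 0.21 and 0.24. In the mesenchyme the limma adjusted p was 0.15, 0.062 and 0.057 without left mesenchyme 1, 2 and 3, and 0.11 and 0.094 without right mesenchyme 1 and 3. In the epithelium it was 0.093 and 0.17 without left epithelium 2 and 3, and 0.065, 0.099 and 0.082 without right epithelium 1, 2 and 3. Without both right mesenchyme 3 and right epithelium 3 DAZL differed by 0.49 (adjusted p = 0.090), 0.46 (0.097) and 0.47 log2 (0.0098) in mesenchyme, epithelium and both layers.

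Between the layers, DAZL was 0.31 ± 0.08 log2 higher in the epithelium over both sides (interval 0.15 to 0.48; 1.24-fold; limma adjusted p = 0.028), with a positive difference in 3 of 3 experiments. It was 0.29 ± 0.11 on the left (adjusted p = 0.27) and 0.33 ± 0.11 on the right (adjusted p = 0.18), neither of which passed, although the arrays of the layers did not overlap on either side. This call was lost, at adjusted p = 0.060 to 0.096, without any 1 of left epithelium 2 or 3, left mesenchyme 2 or 3, right mesenchyme 1 or 3, or right epithelium 2, and was at adjusted p = 0.063 without right mesenchyme 3 and right epithelium 3. Over all 23 alternatives it was lost in 12, at limma adjusted p up to 0.21.

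**Figure D1:**
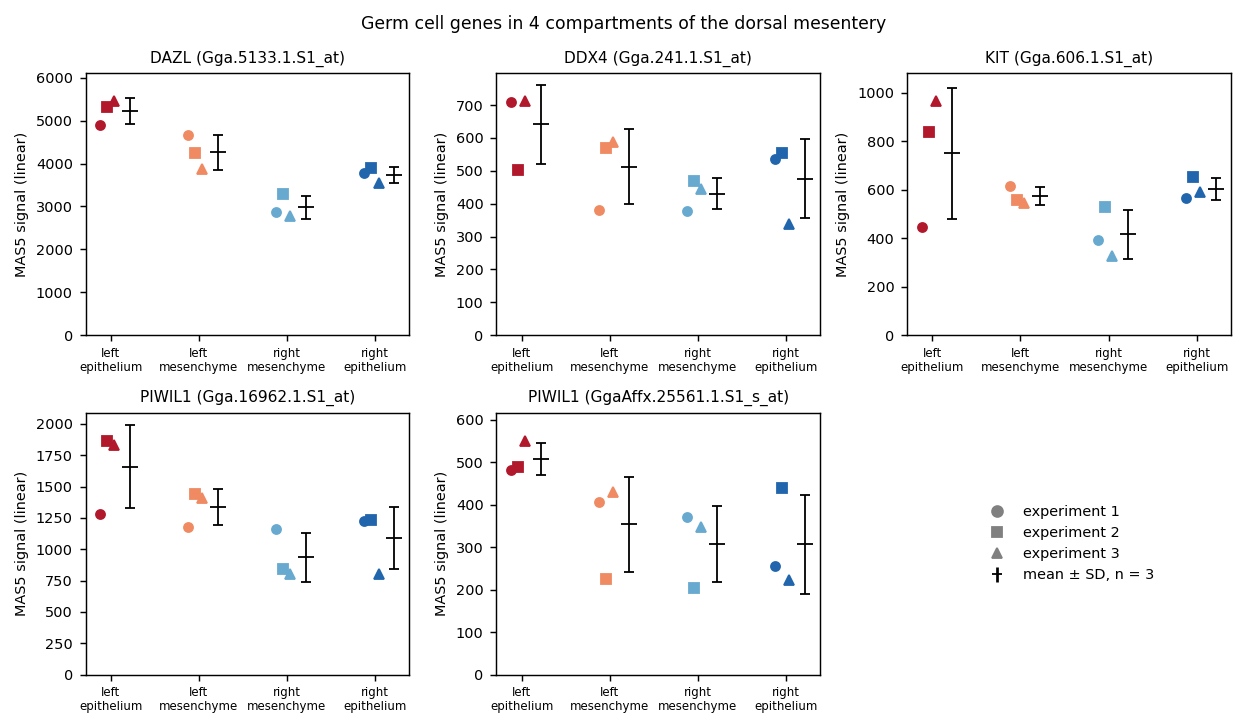
MAS5 signal (linear, y axis from 0) of the 5 probe sets of DAZL, DDX4, KIT and PIWIL1 in the 4 compartments; points are single arrays shaped by experiment, and bars are the mean ± SD of 3 arrays. The mean is highest in left epithelium in all 5 panels, and the DAZL arrays of left and right do not overlap within a layer, whereas the DDX4 arrays do.

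DDX4, the RNA helicase of the germ plasm, did not pass in any contrast. Its epithelial signal was 709.6, 503 and 711 on the left and 535, 554 and 337 on the right. Its mesenchymal signal was 382, 568 and 589 on the left and 377, 469 and 446 on the right. The means fell in the same order as those of DAZL, from 641 ± 119.7 in left epithelium over 513 ± 114 in left mesenchyme and 475 ± 120.1 in right epithelium to 431 ± 47.6 in right mesenchyme, but all neighbours in that order overlapped. Left minus right was 0.23 ± 0.26 log2 in the mesenchyme (95% interval -0.32 to 0.77; limma adjusted p = 0.81) and 0.44 ± 0.26 in the epithelium (-0.11 to 0.98; adjusted p = 0.53). Over both layers it was 0.33 ± 0.18 log2 (-0.05 to 0.71; adjusted p = 0.39), an interval that holds both 0 and the 0.50 measured for DAZL. Without right mesenchyme 3 and right epithelium 3 these differences were 0.16, 0.12 and 0.14 log2.

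PIWIL1 encodes a PIWI protein that binds the small RNAs acting against transposons, and its probe sets agreed in which compartment was highest. The first of them, whose identifier begins with Gga, gave 1278, 1867 and 1836 in left epithelium and 1176, 1438 and 1408 in left mesenchyme. On the right it gave 1227, 1234 and 806 in the epithelium and 1160.3, 844 and 800.5 in the mesenchyme. The means were 1660.2 ± 331, 1340.4 ± 144, 1089 ± 245 and 935 ± 196 in that order of groups, with every neighbour overlapping. Left arrays stayed above right arrays within each layer, by as little as 1176 against 1160.3 in the mesenchyme and 1278 against 1234 in the epithelium, both of these lows on the left coming from experiment 1.

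Over both layers this PIWIL1 probe set rose on the left by 0.57 ± 0.15 log2 (95% interval 0.26 to 0.88; 1.48-fold; limma adjusted p = 0.031). The experiments were uneven, at 0.04, 0.67 and 0.99 log2. Neither layer passed alone, with 0.53 ± 0.21 in the mesenchyme (adjusted p = 0.28) and 0.61 ± 0.21 in the epithelium (adjusted p = 0.18). The call was lost, at adjusted p = 0.076 to 0.11, without any 1 of left epithelium 2 or 3, left mesenchyme 2 or 3, right mesenchyme 2 or 3, or right epithelium 3. Over all 23 alternatives it was lost in 12, at limma adjusted p up to 0.33. Without right mesenchyme 3 and right epithelium 3 the difference was 0.36 log2 (adjusted p = 0.30), with 0.37 in the mesenchyme and 0.35 in the epithelium.

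The second PIWIL1 probe set, whose identifier begins with GgaAffx, has a suffix (_s_at) marking probes that may match more than 1 transcript. It gave 482, 489 and 551 in the epithelium and 406, 225 and 431 in the mesenchyme of the left side. On the right it gave 256, 439 and 224 in the epithelium and 370.1, 204 and 348 in the mesenchyme. Left epithelium (507 ± 37.9) did not overlap with any other group, and the means were 306 ± 116 in right epithelium and 354 ± 112 and 308 ± 90.1 in left and right mesenchyme. Left minus right was 0.75 ± 0.31 log2 in the epithelium (95% interval 0.09 to 1.42; limma adjusted p = 0.30), 0.18 ± 0.31 in the mesenchyme (adjusted p = 0.89) and 0.47 ± 0.22 over both layers (adjusted p = 0.30). Without right mesenchyme 3 and right epithelium 3 these were 0.46, 0.18 and 0.32 log2. No contrast of this probe set passed.

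KIT, a receptor tyrosine kinase carried by germ cells and also by melanoblasts and blood progenitors, did not pass in any contrast. Its signal was 445, 839.5 and 965 in left epithelium, the widest spread of its groups, and 614, 559.6 and 546 in left mesenchyme. It was 391, 528 and 328 in right mesenchyme and 566, 654 and 590.0 in right epithelium. The means were in the order left epithelium (749.9 ± 271), right epithelium (603 ± 45.2), left mesenchyme (573 ± 36.2) and right mesenchyme (415 ± 102), and of these neighbours only left and right mesenchyme did not overlap. Left minus right was 0.47 ± 0.25 log2 in the mesenchyme (95% interval -0.05 to 1.00; limma adjusted p = 0.48) and 0.24 ± 0.25 in the epithelium (adjusted p = 0.77), where the experiments gave -0.34, 0.35 and 0.69. Epithelium minus mesenchyme was 0.55 ± 0.25 on the right (0.02 to 1.07; adjusted p = 0.37), without overlap of the arrays, and 0.31 ± 0.25 on the left (adjusted p = 0.72). Without right mesenchyme 3 and right epithelium 3 left minus right was 0.23 log2 in the mesenchyme and 0.13 in the epithelium, and over both layers it moved from 0.36 to 0.18.

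Read against all tested probe sets, the germ cell probe sets stood as follows. In the mesenchyme 1 of 5, DAZL, was called between left and right, where 1.99% of all tested probe sets were called and 0.932% were called higher on the left. In the epithelium 1 of 5, DAZL again, was called, against 2.47% in either direction and 1.00% higher on the left. Over both layers DAZL and the first PIWIL1 probe set were called, 2 of 5, against 5.28% in either direction and 2.45% higher. Between the layers 1 of 5 was called over both sides (4.79% of all, 2.00% higher in the epithelium), and 0 of 5 on the left (1.91%) or the right (1.90%). In these last 2 contrasts the limma p without adjustment was under 0.05 for DAZL on the left and for DAZL and KIT on the right. Such a p was common, with at least 1467 of the 23063 tested probe sets on the left and 2697 on the right. These numbers are lower bounds, counted only up to an unadjusted limma p of 0.017 and 0.044. Other uncalled differences reached a p under 0.05 too. Between left and right these were the first PIWIL1 probe set in the mesenchyme, both in the epithelium and the second over both layers. At least 1800, 2124 and 3860 of the 23063 reached it in these contrasts. Between the layers over both sides it was KIT, with at least 2924 of the 23063. No probe set of these genes was called in the interaction (0.0260% of all), and none had an unadjusted limma p under 0.05 there.

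The orders of the compartments differed below the highest, and most neighbours in them overlapped. All 5 probe sets had their highest mean in left epithelium and 4 of 5 their lowest in right mesenchyme, the exception being the second PIWIL1 probe set. Of all tested probe sets, 26.2% were highest in left epithelium, 25.6% were lowest in right mesenchyme and 11.9% were both. In the mesenchyme, left arrays lay above right arrays without overlap for 3 of 5 (DAZL, the first PIWIL1 probe set and KIT), against 8.93% of all tested; in the epithelium this held for 3 of 5 (DAZL and both PIWIL1 probe sets), against 7.77%. Epithelial arrays lay above mesenchymal ones without overlap for 2 of 5 on the left (7.74% of all) and 2 of 5 on the right (7.26%). The left was higher in every experiment for 5 of 5 in the mesenchyme (18.0% of all), 3 of 5 in the epithelium (15.9%) and 5 of 5 over both layers (18.4%). The 5 probe sets come from the same 12 RNA samples and are not independent of each other.

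**Figure D2:**
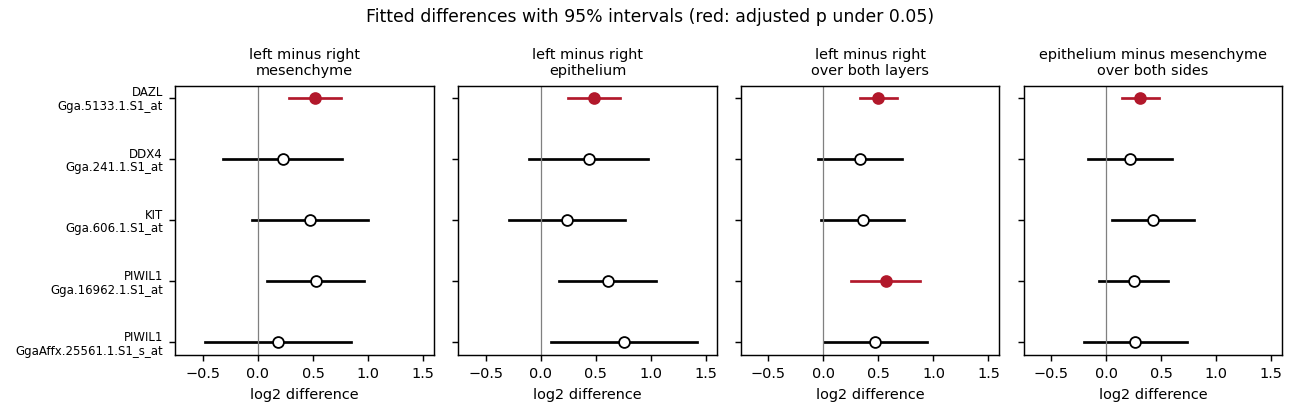
Fitted log2 differences (x axis) of the 5 probe sets in 4 contrasts, with 95% intervals; filled red points have a limma adjusted p under 0.05. All 20 differences are above 0, and those called are DAZL in all 4 contrasts and the first PIWIL1 probe set (Gga) over both layers.

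KITLG, which encodes the ligand of KIT, differed between the sides more than its receptor did in fitted size. Its signal was 1818, 1637 and 1975 in left epithelium and 707, 991 and 1214 in right epithelium. In the mesenchyme it was 1236, 1334 and 1136 on the left and 723, 729 and 623 on the right. The left arrays lay above the right arrays in both layers. KITLG rose on the left by 0.82 ± 0.19 log2 in the mesenchyme (1.77-fold; limma adjusted p = 0.029), by 0.92 ± 0.19 in the epithelium (1.89-fold; adjusted p = 0.012) and by 0.87 ± 0.13 over both layers (adjusted p = 0.00058), and it was 0.50 ± 0.13 higher in the epithelium over both sides (adjusted p = 0.042). The difference between the receptor's and the ligand's changes was not tested. Its call over both layers held in all 23 alternatives. The mesenchymal call was lost without any single mesenchymal array (adjusted p = 0.057 to 0.18), the epithelial call without left epithelium 1 or 3 or right epithelium 1 or 2 (adjusted p = 0.051 to 0.081), and that between the layers without any single array except left epithelium 2 and right epithelium 1 (adjusted p = 0.053 to 0.13). Over all alternatives these 3 calls were lost in 11 of 24, 8 of 24 and 16 of 23, at limma adjusted p up to 0.31, 0.18 and 0.34.

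CXCL12, the chemokine that guides germ cells, gave signals of 9028 ± 441 in left and 3035 ± 237 in right mesenchyme, and of 6566 ± 344 in left and 1572 ± 372 in right epithelium. It rose on the left by 1.57 ± 0.13 and 2.08 ± 0.13 log2 in these layers (limma adjusted p = 1.5e-06 and 6.4e-08). CXCR4, its receptor, was at 579 ± 71.7 in left mesenchyme against 202 ± 51.1 in right mesenchyme, 281 ± 69.4 in left epithelium and 169 ± 33.5 in right epithelium. It rose on the left in the mesenchyme by 1.47 ± 0.27 log2 (limma adjusted p = 0.0054; 0.072 without left mesenchyme 3). This call was lost in 4 of 24 alternatives, each leaving out an array or experiment, at adjusted p up to 0.085. The mean of CXCR4 was highest in left mesenchyme, not in left epithelium where the germ cell genes were highest.

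**Figure D3:**
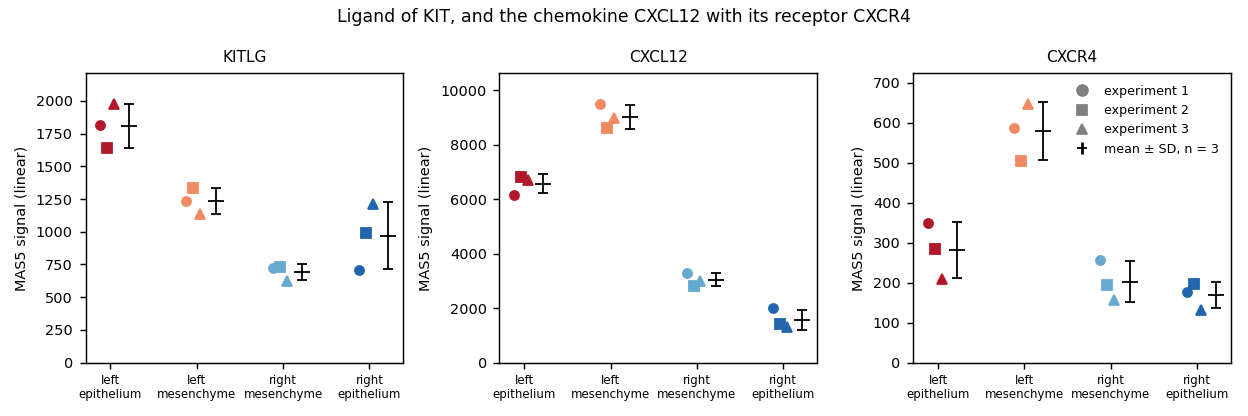
MAS5 signal (linear, y axis from 0) of KITLG, CXCL12 and CXCR4 by compartment, with points for single arrays shaped by experiment and bars for the mean ± SD of 3 arrays. KITLG is highest in left epithelium (1637 to 1975), and CXCL12 and CXCR4 are highest in left mesenchyme.

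Other genes known from germ cells were taken from a list of 45, of which 33 were named on the array and 23 passed the filter. Between left and right, 0 of 23 passed in the mesenchyme and 0 of 23 in the epithelium by limma (0.932% and 1.00% of all tested were called higher there), while 2 rose and 0 fell over both layers. An unadjusted limma p under 0.05 was found for 4 of the 23 in the mesenchyme, 2 in the epithelium and 6 over both layers. Such a p was common, with at least 1800, 2124 and 3860 of the 23063 tested probe sets in these contrasts. These numbers are lower bounds, counted only up to an unadjusted limma p of 0.022, 0.028 and 0.0497. Over both layers 2.45% of all tested probe sets were called higher and 5.28% in either direction. The median difference was 0.31 log2 in the mesenchyme, 0.30 in the epithelium and 0.28 over both layers, against 0.00, 0.01 and 0.01 for all tested probe sets. The sign was positive for 19, 18 and 19 of the 23. The summed signal of the 23 was 19543 to 20572 in left and 16798 to 18308 in right epithelium, and 17351 to 18342 in left and 14617 to 15482 in right mesenchyme. EPCAM, which is also on the list of coelomic epithelial markers, was the brightest probe set in this sum.

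EPCAM, a surface adhesion molecule of germ cells and of epithelia, had group means of 6867 and 5755 in left and right epithelium and 5424 and 4360.2 in left and right mesenchyme. It rose on the left by 0.28 ± 0.07 log2 over both layers (limma adjusted p = 0.018; 0.055 to 0.075 without left epithelium 2, left mesenchyme 1 or 3, or right mesenchyme 1). This call was lost in 8 of 23 alternatives, at limma adjusted p up to 0.20. EPCAM was 0.37 ± 0.07 higher in the epithelium over both sides (adjusted p = 0.0030; 0.11 without experiment 2 and 0.089 without the intensity trend) and 0.40 ± 0.10 on the right (adjusted p = 0.039, lost without any 1 of 10 arrays). The call on the right was lost in 17 of 24 alternatives, at limma adjusted p up to 0.29. DMRT1, a transcription factor of the gonad and its germ cells, had group means of 1736, 1340 and 1281 in left epithelium, left mesenchyme and right epithelium, and 829.5 in right mesenchyme. It rose on the left by 0.53 ± 0.15 log2 over both layers at adjusted p = 0.0498, and 8 of 12 single arrays could not be left out without losing that call (adjusted p = 0.075 to 0.17). The DMRT1 call was lost in 16 of 23 alternatives, at limma adjusted p up to 0.22. TDRD3, a Tudor domain protein that is also widespread outside the germ line, went the other way between the layers, 0.42 ± 0.11 log2 lower in the epithelium over both sides, or -0.42 as epithelium minus mesenchyme (adjusted p = 0.033; 0.057 to 0.095 without any single array but left epithelium 3 and right epithelium 1). The TDRD3 call was lost in 15 of 23 alternatives, at limma adjusted p up to 0.27. Between the layers 1 of the 23 genes rose and 1 fell over both sides, and 1 rose on the right. Of all tested probe sets 4.79% and 1.90% were called there.

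Several further genes of this list, picked after their values were seen, did not pass between the sides over both layers. TDRD1, a Tudor domain protein of the PIWI pathway, had means of 265 and 204 in left and right epithelium and 226 and 154 in left and right mesenchyme (left minus right 0.42 ± 0.19, limma adjusted p = 0.27). TDRD6 (0.72 ± 0.29, adjusted p = 0.19), TDRD5 (0.80 ± 0.30, adjusted p = 0.17) and ASZ1 (0.62 ± 0.30, adjusted p = 0.31) were positive, while MOV10L1 was at -0.27 ± 0.27. LIN28B and PRDM1, regulators of early germ cells, were at 0.16 ± 0.11 and 0.62 ± 0.29 (adjusted p = 0.51 and 0.29). Several of these were dim, with signals of 9.99 to 120 for TDRD5, 23.9 to 133 for PRDM1 and 28.6 to 210 for ASZ1. Those of MOV10L1 and TDRD6 were 38.6 to 144 and 43.8 to 315. TDRD5 and PRDM1 lay above the floor on 11 of 12 arrays. DND1, LIN28A, MAEL, TDRKH, STK31, STRA8, SYCP1, SYCP2, ALPL and SOX2 did not pass the filter on low values. Of these, SOX2, a pluripotency factor, lay above the floor on 0 of 12 arrays, with a highest signal of 19.5, and the meiosis gene SYCP1 on 4 of 12. TDRKH lay above it on 2, MAEL on 5, SYCP2 on 6, DND1 and ALPL on 7, STRA8 on 9, LIN28A on 10 and STK31 on 11.

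**Figure D4:**
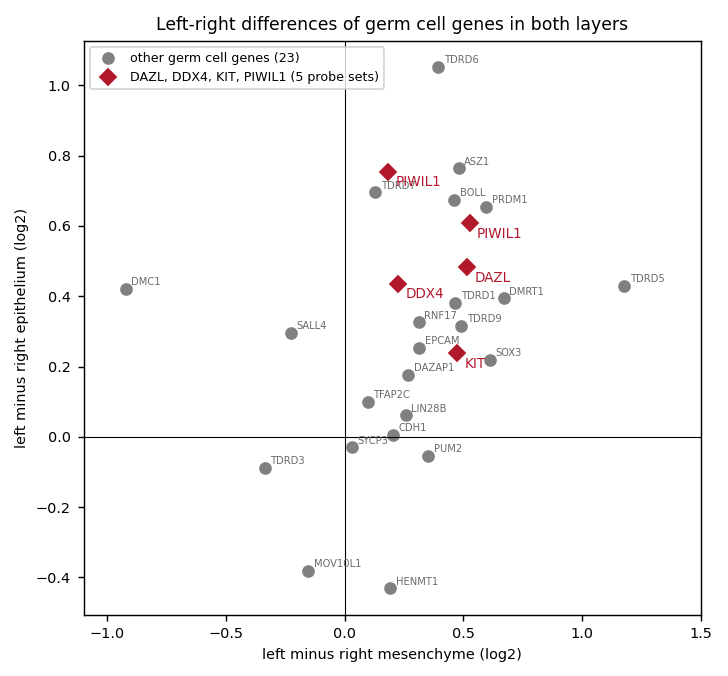
Left minus right difference (log2) in the mesenchyme (x axis) and in the epithelium (y axis) for the 5 germ cell probe sets (red diamonds) and the 23 other germ cell genes that passed the filter (grey circles). All 5 diamonds lie above 0 on both axes; of the grey points, 19 are above 0 on the x axis and 18 on the y axis, and in neither layer did a grey point pass the test.

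Of 40 listed genes of KIT signalling, the ligand KITLG and genes acting downstream of the receptor, 31 were tested. Between left and right, 1 rose and 1 fell in the mesenchyme, and 1 rose and 2 fell in the epithelium and over both layers, where 1.99%, 2.47% and 5.28% of all tested probe sets were called. The medians were 0.04, -0.01 and 0.01 log2 against 0.00, 0.01 and 0.01 for all tested. KITLG was the gene that rose. MITF, the melanocyte transcription factor that KIT signalling acts on, was 566 and 534 in left epithelium and mesenchyme against 1286 and 1004 on the right. It fell on the left by 0.87 ± 0.19 log2 in the mesenchyme (limma adjusted p = 0.020; 0.062 to 0.17 without left mesenchyme 1 or 2 or right mesenchyme 2 or 3) and by 1.16 ± 0.19 in the epithelium (adjusted p = 0.0018). The mesenchymal MITF call was lost in 9 of 24 alternatives, at limma adjusted p up to 0.40. PIK3R1, a regulatory subunit of PI3-kinase, fell on the left in the epithelium by 0.72 ± 0.11 log2, from 6537 to 3989 (adjusted p = 0.0014; 0.058 without experiment 1 and 0.086 without the intensity trend). Between the layers 4.79% of all tested probe sets were called over both sides and 1.91% on the left. KITLG rose and PIK3R1 fell in the epithelium over both sides, the latter by 0.29 ± 0.08 log2 (adjusted p = 0.046, but 0.052 with no replicate block), and PIK3R1 also fell on the left side by 0.51 ± 0.11 (adjusted p = 0.024). Both of these PIK3R1 calls were lost without any 1 of several arrays (adjusted p = 0.058 to 0.16). Over all alternatives the call over both sides was lost in 17 of 23 and that on the left in 9 of 24, at limma adjusted p up to 0.25 and 0.24.

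Of 13 tested genes of germ cell homing and migration, 3 rose (CXCL12, CXCR4 and KITLG) and 1 fell on the left in the mesenchyme, 2 rose (CXCL12 and KITLG) and 1 fell in the epithelium, and 3 rose and 2 fell over both layers; of all tested probe sets 1.99%, 2.47% and 5.28% were called. The medians were -0.01, -0.09 and -0.06 log2. ITGA6, a laminin-binding integrin, was the gene that fell in either layer, by 0.97 ± 0.09 log2 in the mesenchyme and 0.83 ± 0.09 in the epithelium (limma adjusted p = 3.2e-06 and 1.6e-05). Its means were 6299 and 5518 in left epithelium and mesenchyme against 11222 and 10789 on the right. ITGB3, another integrin subunit, fell on the left by 1.31 ± 0.36 log2 over both layers (adjusted p = 0.042), a call lost, at adjusted p = 0.065 to 0.13, without any 1 of left epithelium 3, left mesenchyme 1 or 2, right mesenchyme 1 or 3, or right epithelium 2 or 3. Over all 23 alternatives it was lost in 14, at limma adjusted p up to 0.35. The means of ITGB3 were 79.6 ± 65.3 (SD) and 141 ± 44.4 in left epithelium and mesenchyme against 215 ± 69.8 and 296 ± 59.5 on the right. Its lowest signal was 7.4, and it lay above the floor on 11 of 12 arrays. Between the layers 1.91%, 1.90% and 4.79% of all tested probe sets were called on the left, on the right and over both sides. RAC1, a small GTPase of cell movement, fell in left epithelium by 0.33 ± 0.08 log2 (adjusted p = 0.035; 0.056 to 0.22 without any 1 of 7 arrays). The RAC1 call was lost in 12 of 24 alternatives, at limma adjusted p up to 0.45. CXCL12 fell in right epithelium by 0.96 ± 0.13 (adjusted p = 0.00046) and over both sides by 0.71 ± 0.09 (adjusted p = 0.00010), where KITLG rose.

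Markers of other cell types moved between the compartments too, and their part in the results for the germ cell genes was not tested. Of 13 coelomic epithelial markers 8 rose and 0 fell in the epithelium over both sides, and of 18 mesenchymal markers 0 rose and 6 fell, which is the direction of the labels. In this contrast 4.79% of all tested probe sets were called. The summed signal of the epithelial markers was 39076 to 43872 in left and 48395 to 51181 in right epithelium, and 27358 to 29386 in left and 32111 to 34810 in right mesenchyme. Between left and right, 0 of the 13 rose and 3 fell in the mesenchyme, 0 rose and 4 fell in the epithelium, and over both layers EPCAM rose and 5 fell. All tested probe sets were called at 1.99%, 2.47% and 5.28% in these 3 contrasts. Endothelial markers rose on the left in the mesenchyme for 5 of 20 and fell for 0, with summed signals of 13921 to 15248 in left and 6723 to 7556 in right mesenchyme, but 3217 to 5068 and 3322 to 4038 in left and right epithelium, where 0 rose and 1 fell. Over both layers 8 of these 20 rose and 1 fell on the left. In the epithelium against the mesenchyme over both sides 0 rose and 13 fell. The mesenchymal markers summed to 48541 to 55928 in left and 64737 to 66662 in right epithelium, and to 61157 to 64154 in left and 73591 to 76273 in right mesenchyme. VIM, at 16129 to 27228, was the brightest probe set in this sum. Singly, these markers went both ways between the sides. On the left 1 of the 18 rose and 3 fell in the mesenchyme, and 2 rose and 3 fell in the epithelium. Over both layers 2 rose and 5 fell. The shares of all tested probe sets called were again 1.99%, 2.47% and 5.28%.

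KIT is also made by melanoblasts and blood progenitors, and gonadal tissue lies close by. The counts below stand against 1.99% of all tested probe sets called between left and right in the mesenchyme and 2.47% in the epithelium. Only 4 of 16 neural crest and melanoblast markers were tested, and 0 of them rose and 1 (mesenchyme) or 2 (epithelium) fell on the left; among the 14 on the array, DCT lay above the floor on 0 of 12 arrays, TYR, PMEL and NGFR on 2, TFAP2A on 3, TYRP1 and EDNRB2 on 4, SOX10 on 6, FOXD3 on 9, TFAP2B on 10, and RET, EDNRB, MITF and SNAI2 on 12. The summed signal of the 4 tested, of which SNAI2 is also on the mesenchymal list, was 1865 to 2174 in left and 3354 to 3804 in right epithelium, and 3222 to 3530.3 in left and 4499 to 5431 in right mesenchyme. Of 9 blood markers 0 passed between the sides in the mesenchyme, 0 of them with an unadjusted limma p under 0.05, and 5 fell on the left in the epithelium, with sums of 19428 to 63716 in left and 68438 to 72108 in right epithelium and of 45450 to 59174 in left and 53090 to 61196 in right mesenchyme. The 5 that fell were the globins HBAD, HBA1, HBZ, HBBR and HBE. All of these but HBA1 also fell over both layers, where 5.28% of all tested probe sets were called. Their arrays in left epithelium spread widely, HBAD for instance at 11085 ± 8008 (SD). The other tested blood markers, PTPRC, SPI1, CD44 and RUNX1, did not pass between the sides, and MYB, LYZ and GFI1B did not pass the filter. Of 8 markers of gonad, adrenal and nephros 0 rose, and 2 (mesenchyme) or 1 (epithelium) fell on the left. Their sums were 4310.3 to 5968 in left and 7025 to 7368 in right epithelium, and 2352 to 3404 in left and 4724 to 5974 in right mesenchyme. LHX9, the brightest probe set in these sums, is also on the list of coelomic epithelial markers. Its fall on the left in the mesenchyme is counted in both lists. The means of LHX9 were 3169 and 4468 in left and right epithelium, and 1313 and 2518 in left and right mesenchyme.

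Genes with the pattern most like each germ cell probe set were ranked by Pearson's r of log2 values over the 12 arrays, 1 probe set per comparison and genes with a single symbol. The arrays share their compartments, so the values describe likeness and carry no test. DAZL was closest to UCHL1, a ubiquitin hydrolase (r = 0.966), SPOCK3, a secreted proteoglycan (0.964), TTC39A (0.944), KIF2C, a mitotic kinesin (0.943), and PLEKHA7, a junction protein (0.941). DDX4 had lower values, led by PPCDC (0.870), PRIMPOL (0.857), RGS17 (0.857), GNPTAB (0.855) and TSPOAP1 (0.847).

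The first PIWIL1 probe set was closest to DCK, a nucleoside kinase (r = 0.931), ASPSCR1 (0.928), PRPSAP1 (0.926), KIF23, a kinesin of cell division (0.922), and SYDE2 (0.910). The second shared none of these names and was closest to MRPS11 (0.900), PPA1 (0.885), ISY1 (0.884), DUS1L (0.878) and LSG1 (0.875). KIT was closest to DKC1 (r = 0.897), RDX, a linker of membrane and actin (0.887), DECR2 (0.869), SLC44A5 (0.866) and DDX21, a nucleolar helicase (0.859). None of DAZL, DDX4, PIWIL1 and KIT was among the 5 nearest of another. RDX is also on the list of germ cell homing and migration, by another probe set.

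**Figure D5:**
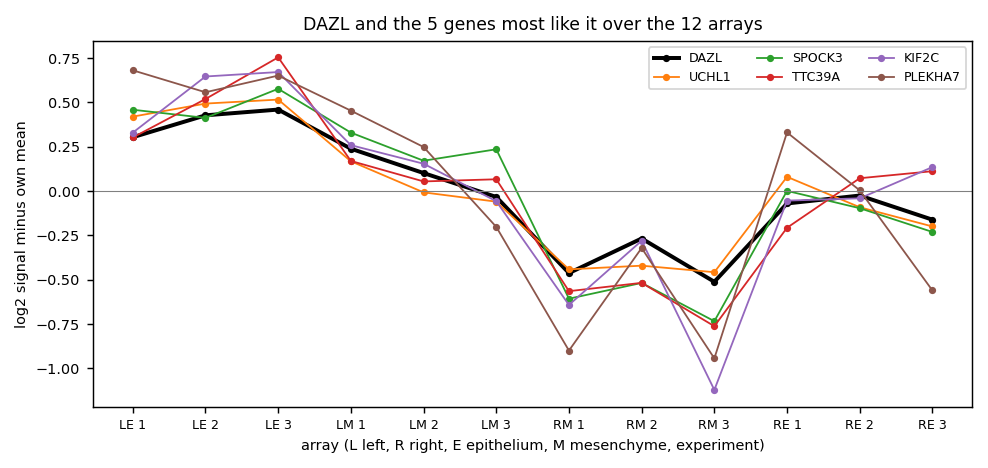
Log2 signal minus each gene's own mean over the 12 arrays (y axis) for DAZL (black) and the 5 genes with the highest Pearson's r to it, by array (x axis; L left, R right, E epithelium, M mesenchyme, then the experiment); the lines only guide the eye. All 6 genes are above their mean on the 3 left epithelial arrays and below it on the 3 right mesenchymal arrays, DAZL by up to 0.46 and -0.51 log2.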

How the data were processed

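Per the labels' protocols, laser-cut tissue gave RNA that was amplified (NuGEN WT-Ovation Pico) and labelled with biotin from 5 ng. The deposited table holds linear intensity values. The authors made them with GCOS and MAS5 (versions unnamed), per the submitters' processing notes, and the trimmed mean of 500.1 on each array shows their scaling. A filter removed the dimmest 40% of the 38439 non-control probe sets (mean signals up to 47.4), which left 23063. On log2(signal + 16), a scale that understates changes of dim genes, limma 3.58.1 (R 4.3.3) fitted compartment plus experiment to the 12 arrays together, with trended eBayes variances (residual df 6, prior df 10.6). P-values are two-sided, adjusted by Benjamini-Hochberg over the 23063 in each contrast and called under 0.05; for 3 arrays against 3, an exact test would reach 0.1 at best. The fit was tested on simulated data with changes larger than the called differences of the germ cell probe sets, so that test does not cover differences of their size. Precision is limited by the number of arrays.

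All compartments came from every experiment, according to the series text, and replicate numbers were taken as experiments. Same-numbered arrays deviated from their compartment means with correlations of -0.063 to 0.105 (18 pairs, mean 0.021); arrays of different numbers averaged -0.010. Names came from the platform annotation of the array. Named genes were all probe sets of the listed genes; those of the gene lists that passed, by their brightest probe set, with KITLG, CXCL12 and CXCR4 in any case; and the 5 genes most correlated with each probe set. TDRD1, TDRD5, TDRD6, ASZ1, MOV10L1, LIN28B, PRDM1 and SYCP1, and the other genes named for not passing the filter, were picked after their values were seen. The genes and lists were chosen with earlier results of these data known; the lists were written from general knowledge. Alternatives were another pseudocount, filter, normalization, variance model, array weights, the block, fewer compartments and left-out arrays.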

Additional observations from a re-analysis of the deposited data

How the results depend on the processing

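Of 35 differences of the germ cell probe sets, 5 were called and 0 of these reversed under an alternative; 4 of the 5 lost the call at least once, the exception being DAZL over both layers, and 0 uncalled ones gained it. Between left and right in the mesenchyme 1 probe set was called, and 0 without the intensity trend and without right mesenchyme 3 and right epithelium 3 (0 to 1 leaving out an array or an experiment); in the epithelium 1, and 0 under these and when fitted with only its own compartments (0 to 1). Over both layers 2 were called, and 1 with no filter, no trend and without this pair of arrays (1 to 2). Epithelium against mesenchyme over both sides gave 1, and 0 with no trend and without the pair (0 to 1). With no replicate block these counts were the same, DAZL for instance at adjusted p = 0.016 in the mesenchyme. Reversed, all uncalled: epithelium minus mesenchyme on the right for the second PIWIL1 probe set was 0.0097 with quantile normalization, 0.12 with array weights and 0.27 without the pair, and the interaction was -0.039 for DDX4 and -0.019 for the first PIWIL1 probe set without the pair. Leaving out an array or experiment, signs turned for the interaction of DAZL (-0.12 to 0.11), DDX4 (-0.084 to 0.52), KIT (-0.52 to 0.13) and the first PIWIL1 probe set (-0.14 to 0.31), for DDX4 between the layers on the right (-0.078 to 0.41) and over both sides (-0.015 to 0.36), for KIT left minus right in the epithelium (-0.043 to 0.56), and for the second PIWIL1 probe set left minus right in the mesenchyme (-0.062 to 0.47) and between the layers on the right (-0.55 to 0.27) and over both sides (-0.13 to 0.46). Of 28 results of other named genes 0 reversed and 16 lost the call at least once. Called over all probe sets, leaving-out apart, were 205 to 763 in the mesenchyme (460 as reported), 268 to 577 in the epithelium (569), 709 to 1315 over both layers (1217), and 254 to 565 (440), 181 to 462 (439) and 672 to 1215 (1105) between the layers on the left, the right and both sides, and 0 to 14 (6) in the interaction; leaving out an array or experiment gave 149 to 541, 200 to 562, 483 to 1225, 145 to 498, 109 to 443, 419 to 1151 and 0 to 15. The cause of these changes was not tested, beyond the smaller number of arrays where some were left out.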
